A study of Saccharomyces cerevisiae with 4 samples.

Results

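The genes described here are 10 budding yeast genes of glucose uptake and glucose sensing: the hexose transporter genes HXT1, HXT2, HXT3, HXT4, HXT5 and HXT7, the glucose sensor genes SNF3 and RGT2, and MTH1 and STD1, which act below the sensors. They were chosen by gene symbol in the probe annotation and not by their values. All 10 have a value, each from 1 probe set, among 5436 budding yeast genes on the array. The study hybridised total RNA from exponentially growing cultures to Affymetrix expression arrays, with 1 array for each of 4 groups. BY4741, a MATa strain with the alleles his3Δ1, leu2Δ0, met15Δ0 and ura3Δ0, was grown at 30 °C, and a second sample was exposed to 40 °C for 30 min. The other 2 groups are the same pair for hsp30Δ::kanMX cells made in BY4741, which by label lack the stress gene HSP30. The growth medium was YPD, a rich glucose medium. The stated question was which genes differ in hsp30Δ cells from the control. Values are log2 expression values as the authors normalized them, so a difference of 1 log2 unit is 2-fold. Where 4 values are given for a gene, they stand in the order unheated BY4741, heated BY4741, unheated hsp30Δ label and heated hsp30Δ label.

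Yeast takes up glucose by facilitated diffusion through Hxt proteins of the plasma membrane, which differ in their affinity for glucose. Snf3 and Rgt2 resemble transporters in sequence but act as glucose sensors. When they bind glucose, the co-repressors Mth1 and Std1 are phosphorylated, ubiquitinated and degraded, and the repressor Rgt1 then leaves the HXT promoters. A second pathway, glucose repression through Mig1 and Hxk2, keeps genes for other carbon sources, and some of the transporters with high affinity, low while glucose is plentiful.

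No group has a replicate array, so the single comparisons below have no test and no error, and genes at least 2-fold apart were counted. HSP30 itself read 15.51, 14.18, 15.18 and 15.91, so its signal goes against the labels of the last 2 arrays unless its probes lie outside the deleted part, which was not checked. Strain directions below are therefore those of the array labels. MET17, the current name of MET15, read 1.95 on every array. HIS3, for which the labels give the mutant allele his3Δ1, was above background throughout and read 12.36, 10.22, 9.95 and 10.15, highest on unheated BY4741. LEU2 and URA3 were not analysed here. All 6 a-specific mating genes read between 10.93 and 14.80. Of the 4 alpha-specific genes, MF(ALPHA)1 read between 2.61 and 3.69 and MF(ALPHA)2 between 3.83 and 5.95, but STE3 lay between 7.12 and 8.71 and SAG1 between 9.61 and 10.86, both lowest on unheated BY4741. BY4741 30 °C stood apart from the other arrays: its Pearson r with them over 5430 genes lay between 0.787 and 0.849, while the other 3 arrays had 0.937 to 0.980 with each other. The comparisons of heat in BY4741 and of the strain labels at 30 °C both subtract this array, so they share its values. Heat on the arrays labelled hsp30Δ and the strain labels at 40 °C do not use it. Values are relative to the whole array, so fewer cells with a transcript and less of it per cell cannot be told apart.

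HXT1, HXT2 and HXT3 were high on BY4741 30 °C and lower on every other array. HXT1, a transporter of low affinity that is induced by high glucose, read 10.02, 5.99, 5.98 and 5.93. The last 3 values lie within 0.06 log2 units of each other, a range that was narrower in only 1.25% of genes, and 4.03 log2 units lie between them and BY4741 30 °C. HXT1 was thus 16.4-fold lower after heat in BY4741 and 16.5-fold lower under the hsp30Δ label at 30 °C. Under quantile normalization the label difference at 30 °C moved from -4.04 to -4.68, and that at 40 °C from -0.06 to -0.78, so the closeness of the 3 low values depends on the scaling.

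HXT3, the other transporter of low affinity in the list, read 14.13, 11.88, 11.36 and 12.61. HXT2, a transporter of higher affinity that is induced when glucose is low, read 13.71, 10.86, 9.89 and 11.13. Both were highest on BY4741 30 °C and lowest on the array labelled hsp30Δ 30 °C. Unlike HXT1, they were not flat over the other 3 arrays: HXT2 spanned 1.24 and HXT3 1.25 log2 units there, and between the labelled hsp30Δ arrays both were higher at 40 °C than at 30 °C, HXT2 2.36-fold and HXT3 2.38-fold. In BY4741 the same temperature step went the other way, with HXT2 7.21-fold and HXT3 4.76-fold lower at 40 °C.

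**Figure D1:**
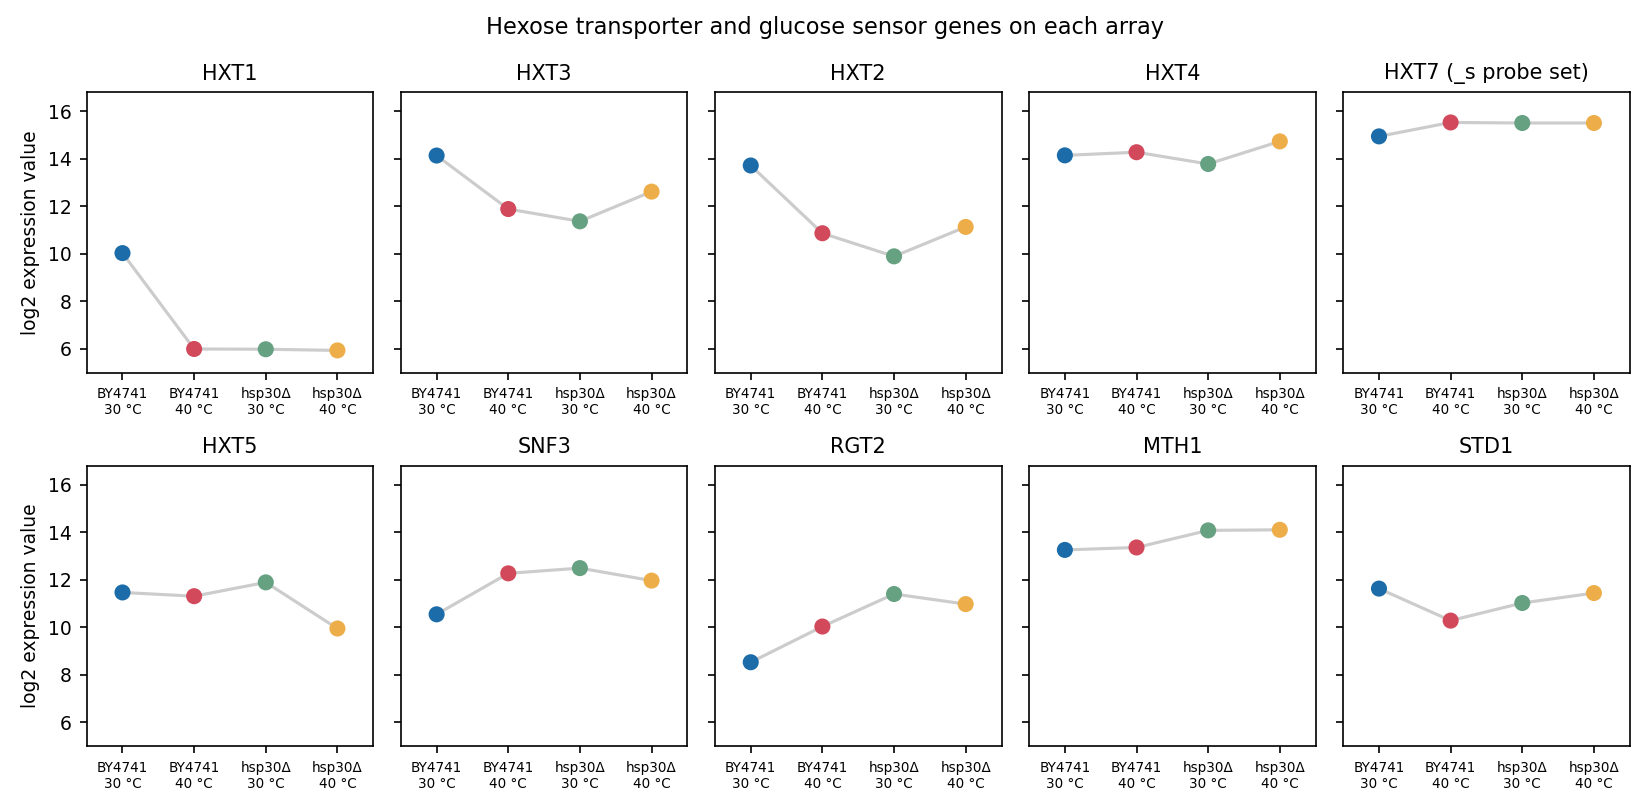
Log2 expression value (vertical axis) of each of the 10 genes on the 4 arrays (horizontal axis, 1 point for each array, joined by a grey line to guide the eye). HXT1, HXT2 and HXT3 are highest on BY4741 30 °C, SNF3 and RGT2 are lowest there, and HXT5 is lowest on the array labelled hsp30Δ 40 °C; heights are not comparable between genes because each has its own probes.

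HXT4 and HXT7, transporters of higher affinity whose genes are held down by high glucose, differed by less than 2-fold in all 4 single comparisons, as did MTH1 and 45.3% of all genes. HXT4 read 14.13, 14.27, 13.77 and 14.72. Its widest single difference was that between the labelled hsp30Δ arrays, 0.95 log2 units higher at 40 °C, just under 2-fold and higher than in 98.0% of genes. HXT7 read 14.93, 15.52, 15.50 and 15.50. The lowest value was again on BY4741 30 °C, here by 0.56 log2 units, and the other 3 lay within 0.02 of each other. The highest values on the arrays are 16.01 to 16.19, which limits how far HXT7 could have read higher. The HXT7 probe set is the only 1 of the 10 with a suffix, _s, which marks probes shared by several transcripts. HXT6, its neighbour and a nearly identical copy, has no value of its own here, so the HXT7 signal may hold both.

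HXT5, a transporter known from slow growth and stationary phase rather than from the glucose sensors, followed neither pattern. It read 11.46, 11.30, 11.88 and 9.94, low on the heated array labelled hsp30Δ alone. HXT5 was 3.84-fold lower at 40 °C than at 30 °C between the labelled hsp30Δ arrays, where only 0.147% of genes had a lower difference, and 2.57-fold lower than in BY4741 at 40 °C, where 1.05% did. In BY4741 the heat difference was -0.16. HXT5 lies next to HXT1 in the reference gene table (assembly R64), and HXT4 lies beyond HXT1 with the reading frame AHT1 between them, so 3 transporters side by side had 3 different patterns.

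The sensor genes had the opposite pattern to HXT1, HXT2 and HXT3. SNF3, the sensor that responds to low glucose, read 10.54, 12.26, 12.49 and 11.96. RGT2, the sensor for high glucose, read 8.53, 10.03, 11.40 and 10.97. Both were lowest on BY4741 30 °C, 2.67-fold below the nearest other array for SNF3 and 2.83-fold for RGT2. RGT2 was 2.83-fold higher after heat in BY4741 and 7.31-fold higher under the hsp30Δ label at 30 °C. For SNF3 these differences were 3.30-fold and 3.85-fold. At 40 °C RGT2 was 0.94 log2 units higher on the array labelled hsp30Δ and SNF3 differed by -0.31. Across the diagonal RGT2 was also 2.58-fold higher on the unheated array labelled hsp30Δ than on heated BY4741, the only gene of the 10 past 2-fold there, against 9.34% of all genes that much higher and 6.19% that much lower.

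MTH1 and STD1, related co-repressors that hold Rgt1 on the HXT promoters, differed from each other. MTH1 read 13.25, 13.35, 14.07 and 14.10. It separated the arrays by strain label and not by temperature, with 0.82 log2 units between the labels at 30 °C and 0.74 at 40 °C, both under 2-fold. These differences were higher than in 72.1% of genes at 30 °C and 88.7% at 40 °C, so neither was unusual in size. STD1, whose own gene is a target of Rgt1, read 11.62, 10.28, 11.02 and 11.44. Its low value was on BY4741 40 °C: STD1 was 2.54-fold lower after heat in BY4741, and at 40 °C it was 2.23-fold higher on the array labelled hsp30Δ.

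Counted by comparison, the 10 genes passed 2-fold as follows. For heat in BY4741, HXT1, HXT2, HXT3 and STD1 were lower and SNF3 and RGT2 higher, 4 and 2 genes, where 18.8% of all genes were that much lower and 18.9% higher. For the strain labels at 30 °C, HXT1, HXT2 and HXT3 were lower and SNF3 and RGT2 higher, 3 and 2 genes, where 21.4% of all genes were lower and 23.2% higher. Differences of this size were common over the whole array in both comparisons, and the counts alone do not set these 10 genes apart. The median over the 10 was -0.03 for heat in BY4741 and 0.03 for the labels at 30 °C, beside 0.13 and 0.11 over all genes. The 6 transporters had medians of -1.20 and -1.56 there, and the 4 sensor pathway genes 0.80 and 1.38.

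In the comparisons without the BY4741 30 °C array few genes were past 2-fold. For heat on the arrays labelled hsp30Δ, HXT2 and HXT3 were higher and HXT5 lower, 2 and 1 genes, where 1.62% of all genes were that much higher and 1.57% lower. For the strain labels at 40 °C, STD1 was higher and HXT5 lower, 1 gene each, where 6.70% of all genes were higher and 3.59% lower (5.93% and 5.16% under quantile normalization). The medians over the 10 genes were 0.01 and 0.36, beside 0.01 and 0.00 over all genes. HXT1 and HXT7 differed by at most 0.06 log2 units in both of these comparisons.

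**Figure D2:**
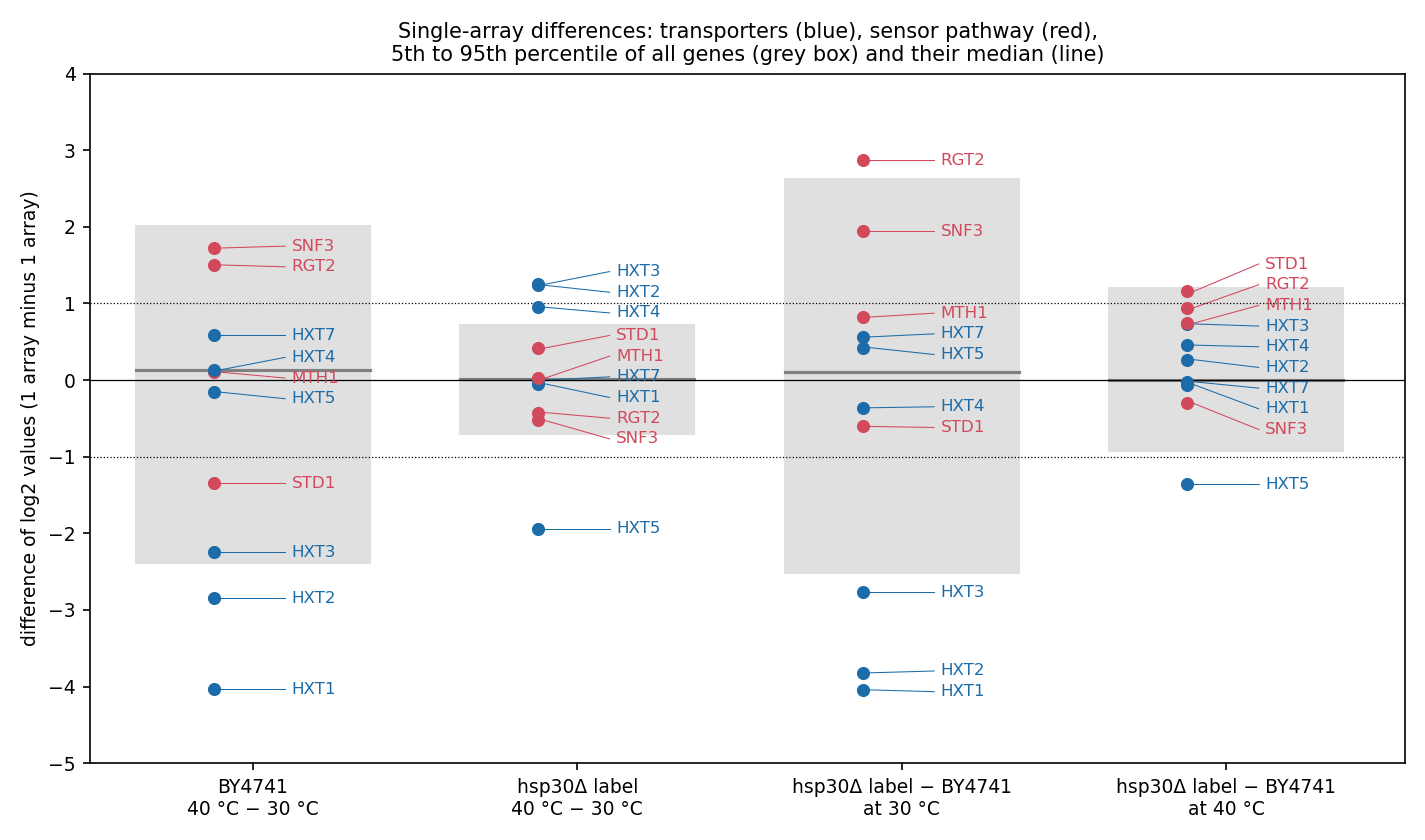
Difference of log2 values (vertical axis) between 2 single arrays for the 10 genes in the 4 comparisons (horizontal axis), with transporters in blue and sensor pathway genes in red. Grey boxes span the 5th to 95th percentile of 5430 genes and grey lines their median, and dotted lines mark 2-fold. HXT1 and HXT2 lie below the box in both comparisons that use BY4741 30 °C, and HXT5 (-1.94), HXT2 (1.24), HXT3 (1.25) and HXT4 (0.95) lie outside the narrow box for heat on the arrays labelled hsp30Δ. For the labels HXT3 (-2.77) and RGT2 (2.87) also lie outside the box at 30 °C, and HXT5 (-1.36) lies below it at 40 °C.

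The heat difference on the arrays labelled hsp30Δ minus that in BY4741 restates these values. It was 4.09 log2 units for HXT2, 3.98 for HXT1, 3.50 for HXT3 and 1.76 for STD1, and -2.25 for SNF3, -1.93 for RGT2 and -1.78 for HXT5. HXT4 (0.82), HXT7 (-0.59) and MTH1 (-0.08) were under 1. Thus 4 of the 10 genes were at least 2-fold upward and 3 downward, where 21.7% and 22.6% of all genes were. For HXT1 the size comes almost wholly from BY4741, since its labelled hsp30Δ arrays differ by -0.05. HXT2 and HXT3 were past 2-fold in opposite directions, lower in BY4741 and higher on the arrays labelled hsp30Δ, as were 0.700% of all genes.

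Set against the other 3 arrays together, BY4741 30 °C was the highest array for 4 of the 10 genes (HXT1, HXT2, HXT3 and STD1) and the lowest for 4 (HXT7, SNF3, RGT2 and MTH1), beside 34.7% and 43.0% of all genes. By at least 2-fold beyond the nearest other array it was the highest for HXT1, HXT2 and HXT3 and the lowest for SNF3 and RGT2, where 13.6% and 13.0% of all genes were. HXT4 and HXT5 had BY4741 30 °C inside the range of the others. The spread of the 10 genes over the other 3 arrays went from 0.02 log2 units for HXT7 to 1.94 for HXT5, which was wider than in 96.5% of genes.

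**Figure D3:**
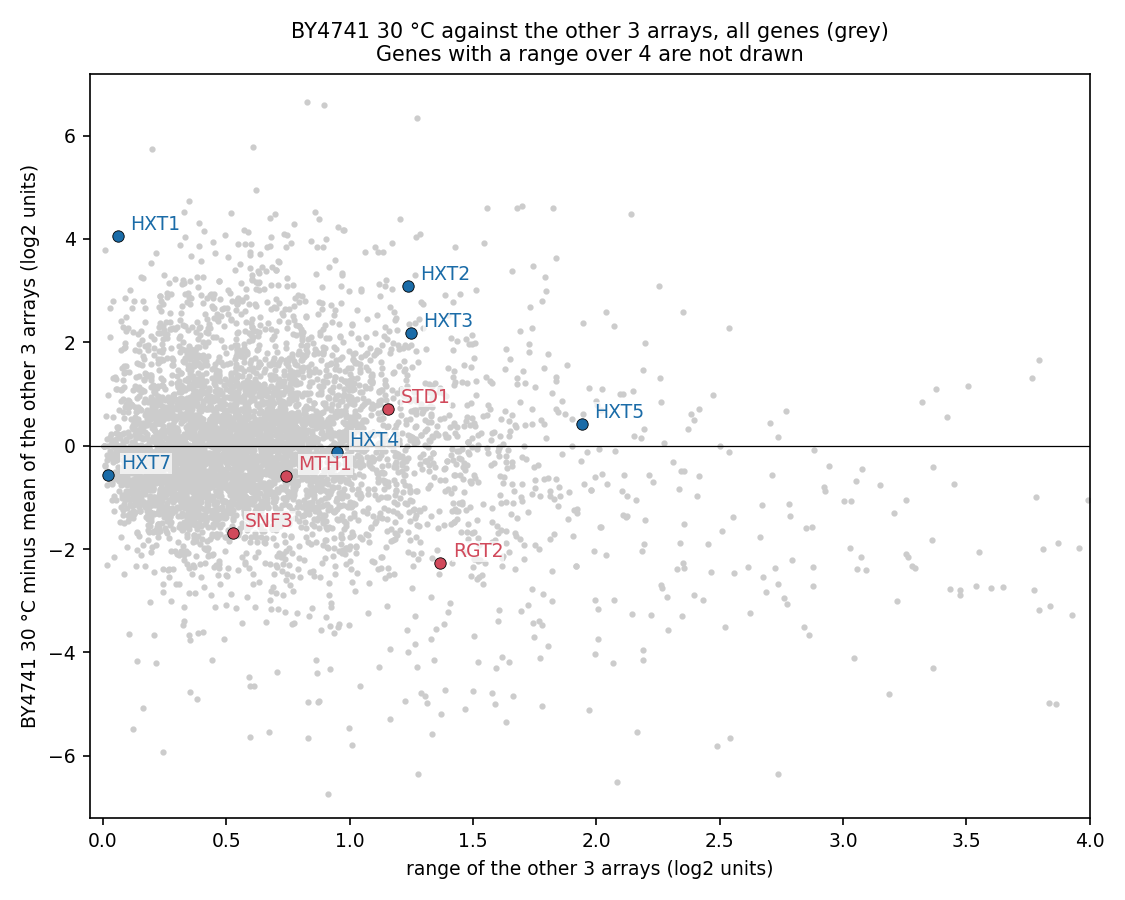
BY4741 30 °C minus the mean of the other 3 arrays (vertical axis, log2 units) against the range of those 3 arrays (horizontal axis, log2 units), with the 10 genes in colour and all genes in grey; 21 genes with a range over 4 are not drawn. HXT1 is at 4.06 with a range of 0.06, RGT2 at -2.27 with a range of 1.37, and HXT5 at 0.42 with a range of 1.94.

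The only test the design allows is a limma fit with strain label and temperature as additive terms, which has 1 residual degree of freedom and asks for a difference shared by both labels or both temperatures. None of the 10 genes passed at an adjusted p under 0.05 in limma, either for heat (over all genes 0 passed, 0.00%, and 109 had an unadjusted p under 0.05, 2.01%) or for the strain label (11 passed, all higher, 0.203%, 0 lower, 0.00%, and 445 had an unadjusted p under 0.05, 8.20%). RGT2 had the smallest p of the 10 for the label, with 1.91 log2 units higher on the arrays labelled hsp30Δ (SE 0.67, limma unadjusted p = 0.0253, adjusted p = 0.564), and higher at both temperatures. HXT1 came next (-2.05, SE 0.94, limma adjusted p = 0.615), although its values differ between the labels at 30 °C alone. For heat the smallest limma p was that of HXT1 (-2.04, SE 0.94, unadjusted p = 0.0668, adjusted p = 0.998). In this fit a heat difference that is not the same under both labels counts as error, as for HXT2, whose fitted heat difference was -0.81 with an SE of 0.96.

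Of 17 other genes of the sensor and glucose repression pathways, 2 were at least 2-fold higher and 2 lower for heat in BY4741, no larger a share than the 18.9% and 18.8% of all genes, with a list median of 0.18. MIG2, a repressor gene that is itself induced by glucose through the sensor pathway, had the widest differences. MIG2 read 8.86, 5.57, 7.77 and 9.33. Like STD1 it was lowest on BY4741 40 °C, where it was 9.80-fold below BY4741 30 °C and 13.6-fold below the array labelled hsp30Δ 40 °C, and like HXT2 and HXT3 it was higher at 40 °C than at 30 °C on the labelled hsp30Δ arrays, 2.95-fold. RGT1, the repressor of the HXT genes, read 11.59, 12.96, 12.47 and 11.44, so it was 2.58-fold higher after heat in BY4741 and 2.04-fold lower at 40 °C on the arrays labelled hsp30Δ, just under 2-fold under median centring (-0.996). In both of these comparisons HXT2 and HXT3 had the opposite sign to RGT1, but the other transporters of the list did not. HXT1 (-4.03 and -0.05) and HXT5 (-0.16 and -1.94) had it for heat in BY4741 alone. HXT4 (0.13 and 0.95) had it on the arrays labelled hsp30Δ alone. HXT7 had the same sign as RGT1 in BY4741 (0.59) and was level between the labelled hsp30Δ arrays. A link between RGT1 and these genes was not tested.

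MIG1, the main repressor of glucose-repressed genes, read 11.14 on BY4741 30 °C and 12.42, 12.67 and 12.86 on the others. HXK2, the hexokinase that also takes part in glucose repression, read 14.77, 13.54, 13.30 and 13.95. MIG1 was thus lowest and HXK2 highest on BY4741 30 °C, as SNF3 and HXT3 respectively were. MIG3, a relative of MIG2, read 8.46, 8.46, 9.45 and 9.78, which separates the labels and not the temperatures, like MTH1. For the label at 30 °C, 2 of the 17 were at least 2-fold higher and 2 lower (median 0.56), beside 23.2% and 21.4% of all genes. At 40 °C 2 were higher and 1 lower (0.15), beside 6.70% and 3.59% of all genes. For heat on the arrays labelled hsp30Δ 1 was higher and 1, RGT1, lower (0.02), beside 1.62% and 1.57%. None of MIG1, MIG2, MIG3, RGT1 and HXK2 passed the limma test in either term, the smallest adjusted p being 0.630 for MIG3.

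The transporters outside the 10, which carry little glucose in rich medium, read low on BY4741 30 °C and higher on the other arrays, except STL1 and, under quantile normalization, HXT17. Of 17 listed sugar transporters 12 have a value. For heat in BY4741 11 of these were at least 2-fold higher and 1, the glycerol transporter STL1, lower, with a median of 3.21. All genes that far apart were 18.9% higher and 18.8% lower. For the label at 30 °C the counts were again 11 and 1 with a median of 3.57, beside 23.2% and 21.4% of all genes. Among the 8 transporters read from probe sets with no suffix, the counts were 7 and 1 in both comparisons. HXT10 read 2.55 on BY4741 30 °C, no higher than the highest fission yeast probe set there (2.84), and 7.03, 7.63 and 7.90 on the others. HXT8 (2.30) and HXT13 (1.95) were no higher than that probe set either, and HXT9 (2.88) was just above it. For such values the background limits the size of a difference. The galactose transporter gene GAL2 read 4.20, 8.90, 8.52 and 9.12, and HXT11 read 5.43, 8.65, 9.98 and 8.91. HXT9, from a probe set with the _s suffix, read 2.88, 7.44, 9.07 and 8.18, and its other probe set was also lowest on BY4741 30 °C. HXT9, HXT10, HXT11 and GAL2 thus had their lowest value where HXT1, HXT2 and HXT3 had their highest.

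Among dim genes such differences were common. Of 430 other genes with a mean between 3.80 and 8.24, the range of the 8 hexose transporters outside the 10, 40.0% were at least 2-fold higher for heat in BY4741 and 45.1% for the label at 30 °C, beside 8 of those 8 transporters in each. Under quantile normalization 6 of the 8 were at least 2-fold higher in each, with HXT8 at 0.51 and HXT17 turned to -0.63 for heat in BY4741 (1.37 as deposited). HXT17 also reads differently by probe set, from 3.11 to 5.78 between BY4741 40 °C and the array labelled hsp30Δ 30 °C on the set with the _x suffix, and 4.50 on both on the set with the _s suffix. On the array labelled hsp30Δ 40 °C these sets read 5.66 and 4.61. Whether HXT17 is past 2-fold higher for the label at 40 °C thus depends on the probe set, and the _s set was used for the counts. In the comparisons without BY4741 30 °C the 12 transporters had medians of -0.04 for heat on the arrays labelled hsp30Δ, with 1 higher and 2 lower, and 0.27 for the label at 40 °C, with 0 higher and 1 lower. Over all genes 1.62% were that much higher and 1.57% lower for the first, and 6.70% and 3.59% for the second. Under quantile normalization 2 of the 12 transporters were lower at 40 °C, as HXT13, read from a set with the _x suffix, moved from -0.49 to -1.23. The other HXT13 probe set was past 2-fold lower as deposited, at 5.83 on BY4741 40 °C and 4.17 on the array labelled hsp30Δ 40 °C.

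**Figure D4:**
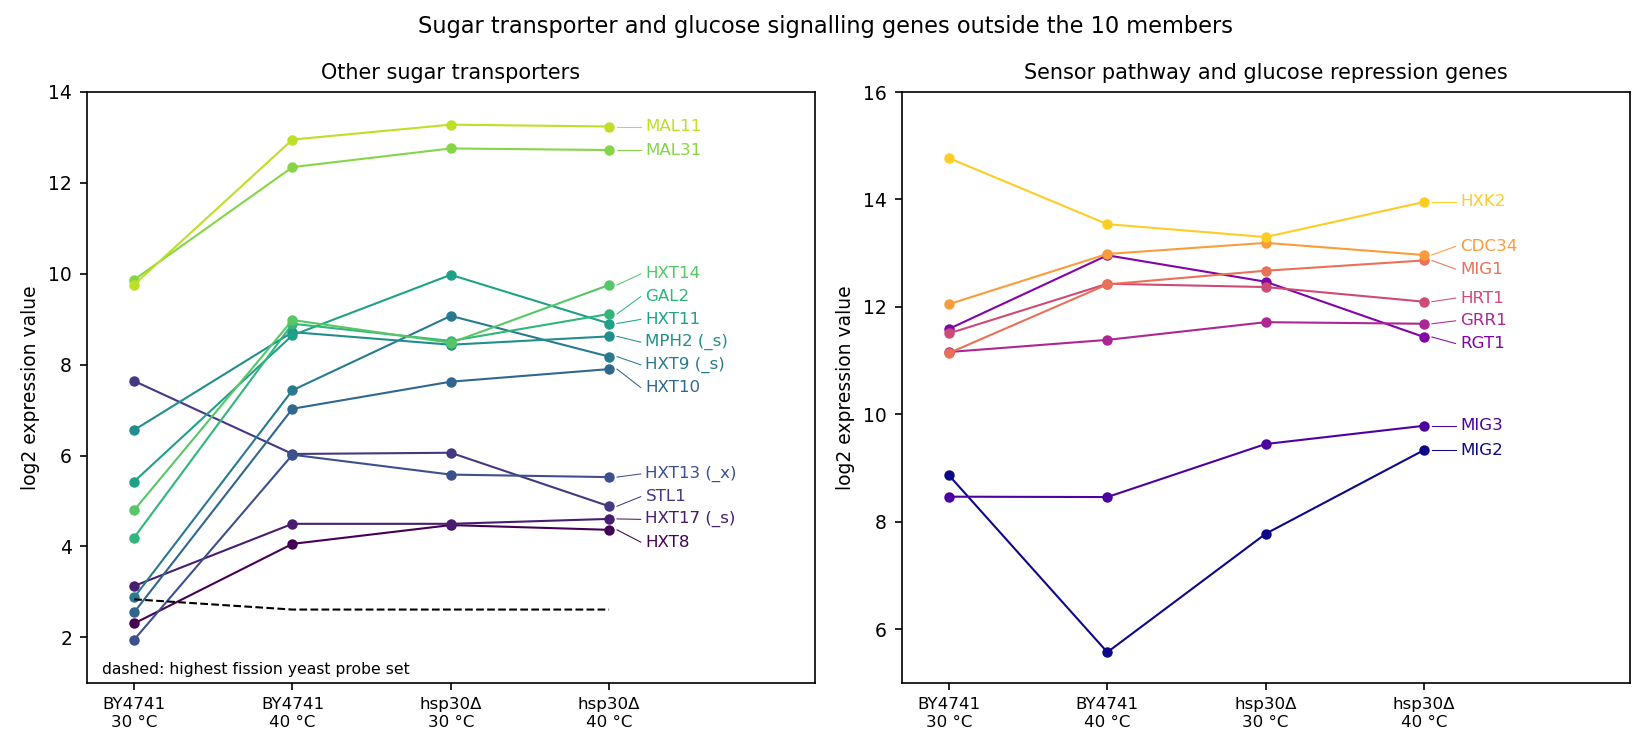
Log2 expression value (vertical axis) on the 4 arrays (horizontal axis) for 12 other sugar transporters (left) and 8 genes of the sensor and glucose repression pathways (right), 1 line per gene; the dashed line is the highest fission yeast probe set of each array. As deposited, all the transporters drawn but STL1 are lowest on BY4741 30 °C, and MIG2 is lowest on BY4741 40 °C at 5.57.

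Genes for the use of other sugars, which glucose represses, differed mostly in the same direction as those transporters. Of 8 with a value, 8 were at least 2-fold higher for heat in BY4741 (median 1.68) and 6 for the label at 30 °C (median 2.40), beside 18.9% and 23.2% of all genes. Under quantile normalization 7 were higher for heat, and for the label 6 were higher and GAL10 lower (-1.20, and -0.57 as deposited). The invertase gene SUC2, which is controlled by Mig1, read 12.78 on BY4741 30 °C and 14.83, 14.88 and 14.99 on the others, and the maltose regulator MAL33 read 8.47, 9.69, 12.38 and 11.81. MAL32, a maltase gene read from an _s probe set, was 7.52 against 11.37, 11.85 and 12.29. The galactose regulator gene GAL3 read 8.08, 10.22, 10.70 and 10.41, and MAL13 read 8.40, 9.60, 11.06 and 10.69, again lowest on BY4741 30 °C. For heat on the arrays labelled hsp30Δ 1 of the 8 was higher (median 0.28), beside 1.62% of all genes. For the label at 40 °C 2 were (median 0.42), beside 6.70%.

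Of the 4 genes that phosphorylate glucose after uptake or resemble those that do, HXK2 was the only one past 2-fold downward. It was 2.34-fold lower after heat in BY4741 and 2.77-fold lower under the hsp30Δ label at 30 °C, where 18.8% and 21.4% of all genes were past 2-fold downward. EMI2, a relative of the glucokinase gene, was the only one past 2-fold upward, by 1.06 log2 units after heat in BY4741, beside 18.9% of all genes. EMI2 read 14.28 on BY4741 30 °C and 15.33, 15.13 and 15.32 on the others. HXK1 (15.63 to 15.84) and GLK1 (15.56 to 15.68) differed by at most 0.21 log2 units over the arrays, close to the highest values. Of 9 genes for the ubiquitination and turnover of plasma membrane transporters, 3 were at least 2-fold higher and 1 lower for heat in BY4741 (median 0.71), and 6 and 0 for the label at 30 °C (median 1.45), beside 18.9% and 18.8%, and 23.2% and 21.4%, of all genes. The first counts were 4 higher and 0 lower under both quantile normalization and median centring, since BUL1 and BUL2 lie close to 2-fold. None of the 9 was past 2-fold for heat on the arrays labelled hsp30Δ or for the label at 40 °C. Over all genes 1.62% were higher and 1.57% lower in the first, and 6.70% and 3.59% in the second. CSR2, an adaptor that brings the ubiquitin ligase Rsp5 to high-affinity hexose transporters, read 11.08 on BY4741 30 °C and 13.62, 14.09 and 14.14 on the others. ROD1, an adaptor of the same family, read 7.71, 8.77, 9.49 and 9.68, and RSP5 itself stayed between 13.11 and 13.49. LDB19, a further adaptor, read 10.27, 11.49, 11.74 and 11.71, and the deubiquitinase gene DOA4 read 11.43, 11.87, 12.90 and 12.33.

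For each of the 10 genes the most similar patterns were sought over the 4 arrays, as the Euclidean distance between log2 values centred on their own mean. HXT1 was nearest to ARX1 (0.23) and MAK16 (0.24), both of ribosome assembly. HXT2 was nearest to PUS1 (0.20) and NOP2 (0.25), and HXT3 to the tRNA synthetase gene FRS1 (0.20) and the IMP dehydrogenase gene IMD3 (0.23). The nearest member to HXT1 was HXT2, at 1.26, so each of these transporters lay closer to genes outside the list than to the other transporters. SNF3 was nearest to ATG40 (0.08) and NNK1 (0.13), and RGT2 to ECL1 (0.17) and ACA1 (0.19). STD1 was nearest to PDR12 (0.11) and CLB2 (0.14), MTH1 to KEX1 (0.08) and YER158C (0.10), HXT4 to PST1 (0.18) and YMR001C-A (0.20), and HXT7 to SLI15 (0.04) and RGI1 (0.04). HXT5 was the only one of the 10 with no gene within a distance of 0.5 among 5420, the nearest being BLI1 (0.60) and ARG80 (0.66), while HXT7 had 1087 genes within that distance and HXT1 21. With 4 points for each gene, the likeness describes these arrays and nothing more.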

How the data were processed

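Per the submitters' processing notes the deposited log2 values were made by the authors with GCRMA and MAS5; versions, roles and order are not given in the sources used here. The table holds 5802 probe sets on 4 arrays, used as deposited. The probe annotation pairs 5483 probe sets with 1 budding yeast gene; 32 belong to fission yeast, and 287 have no gene name and were not used. Each gene was read from its probe set with the highest mean, which gives 5436 genes. Values below the background level, 1.96 (from the fission yeast probe sets: their 95th percentile on each array, then the median), were raised to it for differences, and 5430 genes above it on at least 1 array were compared. The only test was limma 3.58.1 in R 4.3.3 (lmFit, eBayes, unraised values, Benjamini-Hochberg over all genes). The fit was tried on simulated data, where recovery of known changes was required only at a spread below that of these arrays. Named were the 10 genes, up to 4 of each list with the widest difference, RGT1, MIG1, MIG2, MIG3, HXK2 and the 2 nearest patterns for each gene; SUC2, HXT8, HXT13, HXT17, STL1, RSP5, GAL10, BUL1 and BUL2 were added after their values were seen. Genes marking strain and mating type were read beside the labels. Of these only HSP30 differs between the strains by label, so the others bear on the shared genotype and cannot tell the strains apart. The genes and lists were chosen with earlier results of these data known. The number of arrays limits the precision. No genome or sequence table was used here.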

Additional observations from a re-analysis of the deposited data

Results flagged for a closer look

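HXT2 and HXT3 were each past 2-fold in opposite directions between 30 °C and 40 °C under the strain labels, with 1 array for each value. Of all genes, 0.700% were past 2-fold in the same directions. The difference in BY4741 uses the BY4741 30 °C array, which stood apart from the others. For HXT2 the heat difference was -2.85 log2 units in BY4741 and 1.24 on the arrays labelled hsp30Δ, a difference of 4.09. For HXT3 it was -2.25 and 1.25, a difference of 3.50. Neither difference was tested, since no group has a second array.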

How the results depend on the processing

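Quantile normalization and median centring changed none of the 8 counts of the 10 genes past 2-fold and turned no difference past 2-fold. Choosing probe sets by suffix and raising the background to the highest fission yeast probe set could not change them. Each of the 10 genes has 1 probe set, and their lowest value, 5.93 for HXT1, lies above that background. At 3-fold, 1 gene (SNF3) remained higher for heat in BY4741 and 3 (HXT1, HXT2 and HXT3) lower, beside 7.96% and 10.6% of all genes. STD1 was no longer among the lower genes there. For heat on the arrays labelled hsp30Δ 0 remained higher and 1 (HXT5) lower, beside 0.368% and 0.424%. For the label at 40 °C 0 were higher and 0 lower, beside 3.2% and 0.497%. The counts for the label at 30 °C did not change, beside 12.8% of all genes higher and 12.8% lower. Of the single differences of the 10 genes only those of HXT1 between the strain labels moved by over 1.5-fold, under quantile normalization, to -4.68 at 30 °C and -0.78 at 40 °C; the cause was not tested. For the strain label over both temperatures 11 genes passed in limma as deposited, 110 under quantile normalization (80 higher and 30 lower), 0 under median centring (404 at an unadjusted p under 0.05) and 0 with no filter on dim genes (388); the cause was not tested. For heat 0 passed under each of these. No paired analysis was possible because each group has 1 array. Leaving out an array leaves the additive fit with no residual degree of freedom. For the gene lists outside the 10 genes, the raised background and both scalings were added after seeing the data.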
